A study of Mus musculus with 4 samples.

Results

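A set of 9 transcription factor genes known from the pharyngeal endoderm and the thyroid primordium was followed in single-cell RNA sequencing of mouse hearts at E10.5 (embryonic day): Foxe1, Pax8, Nkx2-1, Hhex, Foxa1, Foxa2, Sox2, Pax9 and Pax1. They were chosen by symbol, and all 9 were among the 32285 genes of the count tables. The study compared hearts of wild-type (Wt) C57BL/6J embryos with hearts of C57BL/6J embryos homozygous for a point mutation of the cholesterol synthesis gene Cyp51, I383V, made with CRISPR/Cas9 (Ho), to learn how the mutation disturbs heart formation, and 2 libraries of each genotype were sequenced, named here Wt1, Wt2, Ho1 and Ho2. The labels also give CRISPR/Cas9 as the treatment of the Wt libraries, and neither they nor the methods say how many hearts went into a library, so p-values measure the spread between libraries. Each factor was counted in unique molecular identifiers (UMIs, 1 per captured transcript) in Epcam cells, which are cells with at least 2 UMIs of the epithelial adhesion gene Epcam, and in all other cells, in both cases with 500 to 6000 genes.

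The pharyngeal endoderm is the front part of the embryonic gut tube, which lies directly behind and around the outflow of the heart at this stage. Its floor buds off the thyroid primordium, whose cells are known for carrying Nkx2-1, Pax8, Foxe1 and Hhex together, its lateral pouches carry Pax1 and Pax9, and further back the ventral foregut gives rise to trachea and lung, marked by Nkx2-1, while the dorsal foregut keeps Sox2. Foxa1 and Foxa2 are forkhead factors that open chromatin throughout the early endoderm, and Hhex is also made by early endothelium.

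The labelled tissue is heart, and the libraries did not hold the same amount of epithelium. Epcam cells numbered 536 of 9660 cells in Wt1 (5.55%, exact 95% binomial interval 5.10 to 6.02%), 213 of 7628 in Wt2 (2.79%, 2.43 to 3.19%), 3 of 7430 in Ho1 (0.0404%, 0.00833 to 0.118%) and 291 of 6483 in Ho2 (4.49%, 4.00 to 5.02%). The shares averaged 4.17% ± 1.95 in Wt and 2.26% ± 3.15 in Ho (SD, n = 2 libraries each), and the exact two-sided permutation test over libraries gave p = 0.667, where the smallest p this design allows is 0.333. A threshold of 1 Epcam UMI gave shares of 8.99% in Wt1, 4.59% in Wt2, 1.01% in Ho1 (75 cells) and 6.91% in Ho2. Because Ho1 had under 50 Epcam cells at the threshold of 2 UMIs, the levels of the factors in Epcam cells come from Wt1, Wt2 and Ho2.

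Ho1 stood apart in another way. Xist, the transcript of the inactive X chromosome, had 32234 UMIs there against 5 in Wt1, 4 in Wt2 and 2 in Ho2, and Y chromosome genes had 0 UMIs in Ho1 against 9968, 10873 and 10475, so that sex and library cannot be told apart. Each pair of libraries shared between 14 and 34 cell barcodes, and at most 3 of the barcodes a pair shared were Epcam cells. The deposited UMIs summed to 109893733 (Wt1), 117034633 (Wt2), 127018819 (Ho1) and 107377100 (Ho2), and a typical Epcam cell held 10939 UMIs in Wt1, 9457 in Wt2 and 14591 in Ho2 (medians).

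The factors sit at scattered places in the genome, given here on GRCm38 with the GENCODE M21 annotation, in which 32158 of the 32285 gene identifiers of the files are found. Foxe1 (ENSMUSG00000070990, chr4:46343609-46346412, plus strand) and Sox2 (ENSMUSG00000074637, chr3:34650405-34652461, plus strand) have a single exon. Pax8 (ENSMUSG00000026976, chr2:24420560-24475599, minus strand) has up to 12 exons, and Hhex (ENSMUSG00000024986, chr19:37434810-37440731, plus strand) up to 4. Chromosome 12 holds a group of 3: Nkx2-1 (ENSMUSG00000001496, chr12:56531958-56536908, minus strand), Pax9 (ENSMUSG00000001497, chr12:56691767-56712822, plus strand), which lies 154859 bases from it, and Foxa1 (ENSMUSG00000035451, chr12:57540628-57546916, minus strand). On chromosome 2, Pax1 (ENSMUSG00000037034, chr2:147361925-147393295, plus strand) and Foxa2 (ENSMUSG00000037025, chr2:148042877-148046969, minus strand) lie 649582 bases apart. Annotated antisense genes overlap Foxe1 (Gm12446), Nkx2-1 (Gm26973), Pax1 (AI646519) and Pax9 (Gm15524). On the opposite strand, the protein-coding gene Slc25a21 also overlaps Pax9, and a transcript overlaps Pax8 (Gm13415). Sox2ot overlaps Sox2 on the same strand. Per the methods, counting was done by Cell Ranger at its defaults, which for 3′ libraries assign reads to genes on their own strand, so the overlap on the same strand, that of Sox2 with Sox2ot, is the one in which reads may be lost or shared.

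The stretches before the starts of Pax8 and Nkx2-1 are shown because transcripts of both were found in the same Epcam cells of the 3 libraries. They are the 250 bases before the transcription start in RefSeq (GRCm38.p6), 5′ to 3′ on the strand of the gene, Pax8 at chr2:24475600-24475849 (minus) and Nkx2-1 at chr12:56536909-56537158 (minus), with no capitals because none of the motifs searched stood in them.
Pax8: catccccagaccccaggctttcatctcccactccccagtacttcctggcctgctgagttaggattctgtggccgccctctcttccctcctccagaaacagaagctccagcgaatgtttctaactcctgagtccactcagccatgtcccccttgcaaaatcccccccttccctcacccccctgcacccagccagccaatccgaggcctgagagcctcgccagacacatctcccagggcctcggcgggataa
Nkx2-1: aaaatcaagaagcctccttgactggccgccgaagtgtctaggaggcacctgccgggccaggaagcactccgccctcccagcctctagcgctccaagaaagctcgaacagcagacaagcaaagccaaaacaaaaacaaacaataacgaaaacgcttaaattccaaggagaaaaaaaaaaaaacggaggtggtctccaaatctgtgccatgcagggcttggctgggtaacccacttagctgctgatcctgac
RefSeq windows were matched for 8 of the 9 genes, Foxe1 being the other. For a description, 4 short motifs were searched up to 50 bases past the start, 3 of them on both strands and the TATA box on the strand of the gene alone. The forkhead motif TGTTTAC stood, among the windows of the 8 genes, only before Foxa1, on the opposite strand and 141 bases before the RefSeq start, which lies inside the gene as GENCODE M21 draws it, and 3.65% of the 32851 windows of the table held it. The NKX2 motif CTCAAG was found in 1 of the windows of Foxa2, on the opposite strand and 187 bases before its start, against 15.9% of all windows. The SOX motif ACAATG was found on the opposite strand 12 bases before the start of Pax9, against 12.6% of all windows. These starts of Foxa2 and Pax9 also lie inside the genes as GENCODE M21 draws them. The TATA box TATAAA was in no window of the 8 genes on the strand of the gene, where 8.32% of all windows held it. GC content was 76% before Hhex with 32 CG dinucleotides, 60.4% with 6 before Pax8, 50.8% with 9 before Nkx2-1 and 62% with 21 before Foxa1, against a median of 52.4% with 6 over all windows.

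The Epcam cells carried an epithelial profile. All 10 genes of an epithelium list were higher in them than in other cells (Epcam itself chose them), among them the simple keratins Krt8 and Krt18 and Spint2, an inhibitor of membrane proteases. All 8 cardiomyocyte, 7 endothelial, 7 mesenchymal, 6 epicardial and 7 erythroid markers tested were lower, and 2 of 6 macrophage markers. In the same comparison, described below, 11.7% of all 16577 genes tested were higher and 14.0% lower. Transcripts of the working heart were still found in Epcam cells: the summed cardiomyocyte markers stood at 2272 CPM (UMIs of a gene per 1000000 UMIs of the summed cells) in Wt1, 3454 in Wt2 and 1860 in Ho2, led by the atrial light chain gene Myl7, against 9023, 16402 and 17556 CPM in the other cells of these libraries. Their part in the levels of the factors was not tested.

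All 9 factors were higher in Epcam cells than in the other cells of the same library. In edgeR's quasi-likelihood test on counts summed per library, with the library as a block (3 libraries, 2 sums each, Benjamini-Hochberg adjusted p under 0.05), 9 of 9 were called higher, where 11.7% of the 16577 genes tested were called higher and 14.0% lower. Nkx2-1, Foxa1, Foxa2, Pax1 and Pax9 had under 10 UMIs in at least 1 of the sums over other cells and came into the test through the Epcam sums in which they were high, so the count over the 9 is a description, and for these 5 the fitted fold changes are given without a p-value. The 4 factors with at least 10 UMIs in every sum, Foxe1, Pax8, Hhex and Sox2, were called higher when that filter was used. The calls of the 9 were the same with 1 or with 3 Epcam UMIs as the threshold, with DESeq2 and in each other alternative that tested all of them.

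Foxe1, a forkhead factor needed for the thyroid primordium to migrate, differed widely between libraries. Its level in Epcam cells was 71.0 CPM in Wt1 (472 UMIs), 369 in Wt2 (864 UMIs) and 85.6 in Ho2 (402 UMIs), against 0.409, 0.303 and 0.0990 CPM in other cells. Wt2 was far above the other libraries, which were close to each other. The fold change of Epcam over other cells was 8.89 on the log2 scale (SE 0.45, edgeR adjusted p = 7.5e-06).

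Pax8, a paired-box factor that switches on the genes of thyroid hormone synthesis, followed the same order. It stood at 25.3 CPM in Wt1 (168 UMIs), 120 in Wt2 (281 UMIs) and 25.4 in Ho2 (119 UMIs), and in other cells at 0.185, 0.107 and 0.129 CPM. Wt1 and Ho2 had intervals that overlapped nearly in full, and Wt2 was above both. Pax8 rose by 8.16 on the log2 scale (SE 0.45, edgeR adjusted p = 1.1e-05).

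Hhex, a homeobox factor that keeps the thyroid and liver buds growing, showed the Wt2 peak too but was much less confined to Epcam cells. Its level was 25.3 CPM in Wt1 (168 UMIs), 113 in Wt2 (265 UMIs) and 27.1 in Ho2 (127 UMIs), against 6.90, 10.6 and 8.30 CPM in other cells. Wt1 and Ho2 again lay together below Wt2. Its fold change was 2.18 on the log2 scale (SE 0.27, edgeR adjusted p = 6.0e-04).

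Nkx2-1, the homeobox factor shared by thyroid, lung and trachea, had a different order. It was lowest in Wt1 with 16.8 CPM (112 UMIs), intermediate in Wt2 with 68.2 (160 UMIs) and highest in Ho2 with 105 (493 UMIs), while other cells gave 0.117, 0.0712 and 0.119 CPM. All 3 libraries had intervals apart from each other. The fitted log2 fold change over other cells, where Nkx2-1 had 12, 8 and 12 UMIs, was 8.92 (SE 0.41).

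Among the general endoderm factors, Foxa2 stood at 6.62 CPM in Wt1 (44 UMIs), 10.7 in Wt2 (25 UMIs) and 36.9 in Ho2 (173 UMIs). Foxa1 had 7.07 CPM in Wt1 (47 UMIs), 18.8 in Wt2 (44 UMIs) and 22.4 in Ho2 (105 UMIs). For Foxa2 Ho2 was above both Wt libraries, whereas for Foxa1 Wt2 and Ho2 overlapped above Wt1. Their fitted log2 fold changes over other cells were 7.11 (SE 0.41) and 7.95 (SE 0.47). Sox2, a factor of the dorsal foregut and of many progenitors, was the most even of the 9. It had 51.7 CPM in Wt1 (344 UMIs), 56.7 in Wt2 (133 UMIs) and 39.4 in Ho2 (185 UMIs), and a log2 fold change of 5.88 (SE 0.21, edgeR adjusted p = 1.0e-06).

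The pouch factors came almost entirely from Wt1. Pax9, needed for the pouches that form thymus and parathyroid, had 65.1 CPM in Wt1 (433 UMIs), 6.82 in Wt2 (16 UMIs) and 2.98 in Ho2 (14 UMIs). Pax1, its close relative, had 21.4 CPM in Wt1 from 142 UMIs, and a single UMI in each of Wt2 and Ho2. Wt1 was above Wt2 and Ho2 for both genes, and Wt2 and Ho2 overlapped. In other cells of Wt1, Wt2 and Ho2 Pax9 had 68, 10 and 6 UMIs, with a fitted log2 fold change of 6.23 (SE 0.28), and Pax1 had 10, 0 and 1, for which no fold is given. Without Wt1, Pax1 had too few counts to be tested. In Ho1, whose 3 Epcam cells allow no level, Hhex had 2 UMIs and the other factors none.

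**Figure D1:**
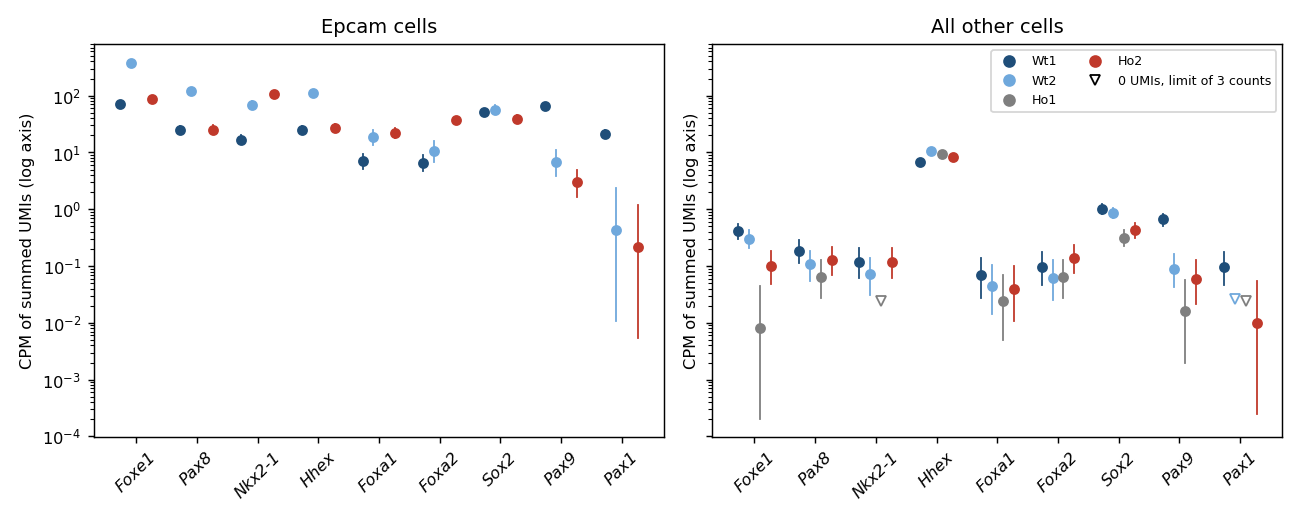
CPM of summed UMIs (log axis) for the 9 factors in Epcam cells (left, 3 libraries) and in all other cells (right, 4 libraries), with exact Poisson 95% intervals that cover counting error only; triangles mark 0 UMIs at the limit of 3 counts. Wt2 is highest for Foxe1, Pax8 and Hhex, Ho2 for Nkx2-1 and Foxa2, and Wt1 for Pax9 and Pax1, while in other cells Hhex stands at 6.90 to 10.6 CPM and the other factors at 1.00 CPM or less.

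Shares of cells gave the same picture at equal depth. Each cell was thinned to 5000 UMIs, which left 477 Epcam cells of Wt1, 190 of Wt2 and 282 of Ho2, since 59, 23 and 9 cells were shallower. Foxe1 was found in 21.2% of them in Wt1, 74.2% in Wt2 and 19.5% in Ho2, and Pax8 in 10.7, 40.0 and 8.87%. Nkx2-1 was found in 8.60% in Wt1, 31.1% in Wt2 and 40.1% in Ho2. The intervals of Wt2 and Ho2 overlapped for Nkx2-1 and were apart for Foxe1 and Pax8. Without thinning, Foxe1 was found in 31.9, 82.2 and 26.1% of Epcam cells and Nkx2-1 in 13.1, 39.0 and 64.3%. In other cells, a mixture in which Hhex and Sox2 were found in some gates, the thinned shares reached at most 0.716% for any factor but Hhex. Before thinning, these cells had median depths of 10843 UMIs in Wt1, 14599 in Wt2 and 16038 in Ho2. After thinning, Hhex was found in 3.25 and 5.52% of the other cells of Wt1 and Wt2 and in 4.48 and 3.99% of those of Ho1 and Ho2. In Epcam cells it was found in 9.22, 36.3 and 9.93%. Pax1 was found in 0 of 190 thinned cells of Wt2, which allows a share of cells with a UMI at this depth of up to 1.58%, and in 0 of 282 of Ho2, which allows up to 1.06%. Without thinning it was found in 1 of 213 cells of Wt2 and 1 of 291 of Ho2.

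**Figure D2:**
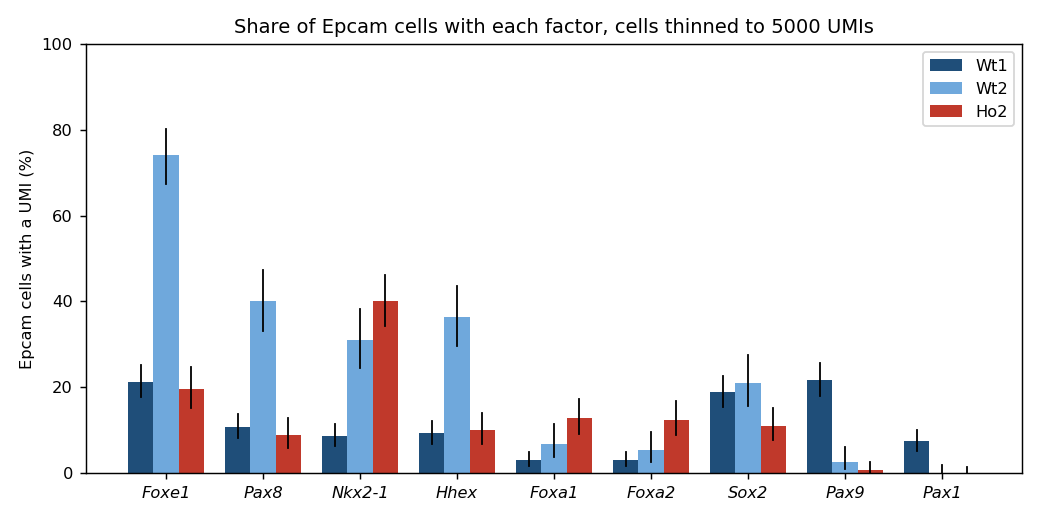
Percent of Epcam cells with at least 1 UMI of each factor after thinning to 5000 UMIs, with exact binomial 95% intervals, in Wt1 (477 cells), Wt2 (190 cells) and Ho2 (282 cells). The Foxe1 share is 74.2% in Wt2 against 21.2 and 19.5% in the others, and Nkx2-1 reaches 40.1% in Ho2.

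In single Epcam cells, Pax8 was found with the other thyroid factors. Of the thinned cells with Pax8, Foxe1 was also found in 66.7% of 51 cells in Wt1, 94.7% of 76 in Wt2 and 96.0% of 25 in Ho2, against 15.7, 60.5 and 12.1% of the cells without Pax8. Hhex was found in 28 of the 51 Pax8 cells of Wt1, 55 of the 76 of Wt2 and 15 of the 25 of Ho2, and Nkx2-1 in 45.1, 56.6 and 72.0%. All 4 thyroid factors were found in 12 cells of Wt1 (2.52%), 34 of Wt2 (17.9%) and 13 of Ho2 (4.61%). These shares describe the cells of 3 libraries and carry no test. Foxe1 was not limited to such cells: in Wt1 its 101 cells held Sox2 in 28.7% of cases and Nkx2-1 in 29.7%, and it was found in 32.2% of the Sox2 cells against 18.6% of those without Sox2, and in 57.1% of the 14 Foxa1 cells against 20.1%. For Foxa1 the shares were 76.9% of 13 cells against 74.0% in Wt2 and 13.9% of 36 against 20.3% in Ho2, and for Sox2 they were 75.0 and 74.0% in Wt2 and 25.8 and 18.7% in Ho2. Pax8 cells had few transcripts of the other group: Foxa2 was found in none of the thinned ones in the 3 libraries, and without thinning in 0 of 82, 1 of 96 and 2 of 43, and Sox2 in 7.84, 2.63 and 0% of the thinned ones. Before thinning, Pax8 cells were shallower than the Epcam cells without Pax8, with median UMIs of 7168 against 11504 in Wt1, 7149 against 11295 in Wt2 and 11547 against 15153 in Ho2, and the part of this in the shares was not tested.

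The foregut and pouch factors paired differently. Sox2 was found in 64.3% of the 14 Foxa2 cells of Wt1, in 70.0% of 10 in Wt2 and in 14.3% of 35 in Ho2, against 81 of 463, 33 of 180 and 26 of 247 cells without Foxa2. Without thinning the share in Ho2 was 35.7% of 98 Foxa2 cells against 17.1%. In Ho2 the Foxa2 cells held Nkx2-1 in 42.9% of cases, close to the 39.7% of cells without Foxa2. Pax9 was found in 40.0% of the 35 Pax1 cells of Wt1 against 20.1% of its cells without Pax1. With Hhex, Pax9 was found in 0 of 103 thinned Pax9 cells of Wt1, where 11.8% of cells without Pax9 held Hhex, and Wt2 and Ho2 had 5 and 2 Pax9 cells. Without thinning both were found in 4 cells of Wt1, 3 of Wt2 and 2 of Ho2. No factor at all was found in 41.9% of the thinned Epcam cells of Wt1, 16.3% of Wt2 and 31.2% of Ho2, and 4 or more in 3.77, 20.5 and 5.32%.

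**Figure D3:**
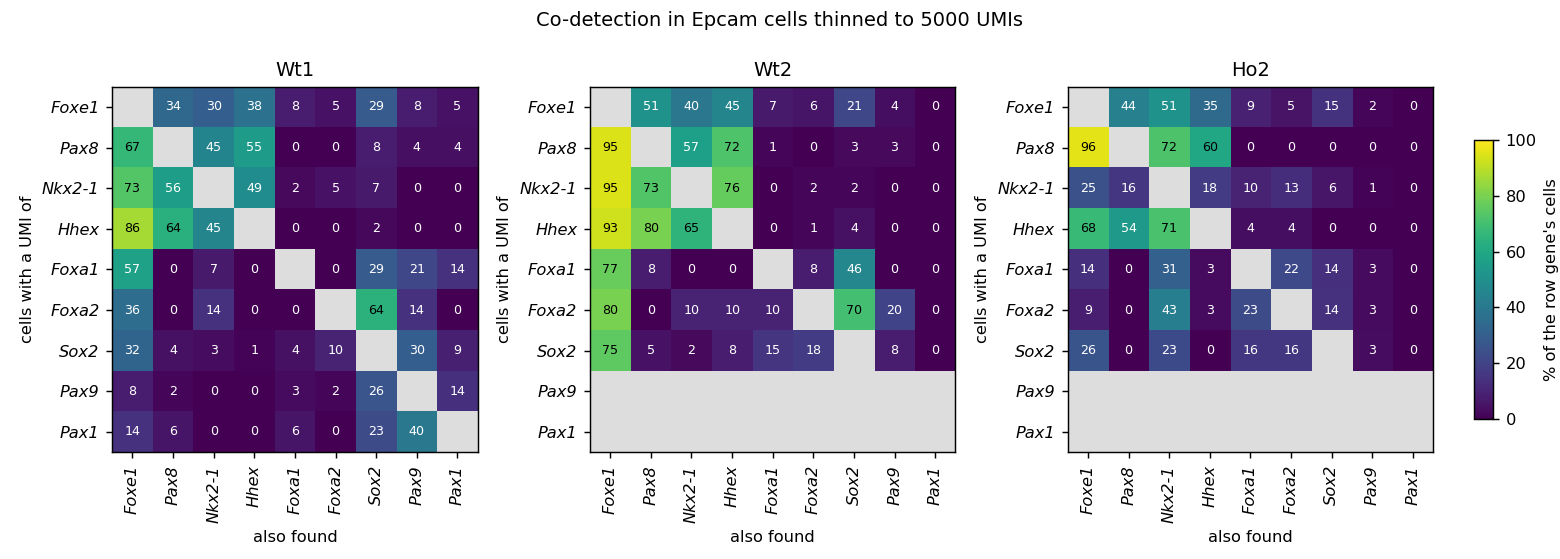
Percent of the Epcam cells with a UMI of the row gene in which the column gene was found too, after thinning to 5000 UMIs, in Wt1, Wt2 and Ho2 (grey where the row gene has under 10 cells, and on the diagonal). Foxe1, Pax8, Nkx2-1 and Hhex form a block of high shares in Wt1 and Wt2, while in Ho2 the Nkx2-1 row falls to 24.8% for Foxe1 and 15.9% for Pax8.

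The partners of Nkx2-1 differed between libraries. Its thinned cells held Foxe1 in 73.2% in Wt1 and 94.9% in Wt2 but 24.8% in Ho2, and Pax8 in 56.1, 72.9 and 15.9%. Before thinning, Epcam cells with Nkx2-1 and no Pax8 numbered 29 in Wt1, 18 in Wt2 and 148 in Ho2, while those with both numbered 41, 65 and 39. The cells without Pax8 differed in depth, with medians of 11093 UMIs in Wt1, 6508 in Wt2 and 16616 in Ho2, and whether either gene is found, or a level is 0, depends on it. The genes in these cells were looked at after the values were seen, and as the cells were picked by 2 of the factors, their levels are a description. In cells with both factors, Bcl2, a survival factor known in the thyroid bud, stood at 260 CPM in Wt1, 276 in Wt2 and 257 in Ho2, and the thyrotropin receptor gene Tshr at 29.2, 31.7 and 30.7 CPM. These values lay close together in the 3 libraries. No intervals were computed for them, and at such cell numbers and depths those of Tshr rest on few UMIs.

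The Nkx2-1 cells without Pax8 were unlike each other. In Wt2 they still held Foxe1 at 451 CPM, Hhex at 229 and Bcl2 at 289.5. In Ho2 they held Foxe1 at 9.64 CPM, Hhex at 11.6 and Bcl2 at 10.4. Some cells of this kind in Wt1 held Foxe1 or Hhex. Of its 70 Nkx2-1 cells before thinning, 53 held Foxe1, 38 of them with Pax8, and 39 held Hhex, 29 of them with Pax8. The Ho2 cells carried Shh, the hedgehog ligand of ventral foregut, at 147 CPM, Wnt7b, a ligand of lung epithelium, at 87.5, Etv5, a target of FGF signalling in the lung bud, at 136, and Irx1, a homeobox factor, at 143. In the 29 cells of Wt1 these 4 genes stood at 69.3, 8.66, 23.1 and 37.5 CPM. In the 18 cells of Wt2 they stood at 0, 0, 0 and 6.73. The Ho2 cells of this kind were thus high in these 4 genes and low in Foxe1, Hhex and Bcl2, and those of Wt2 the reverse. For the 4 genes both Wt libraries were below Ho2. The cells of Wt2 were few and shallow, so its order against Wt1 is not read. A difference between the genotypes was not tested in these cells, which came from a single Ho library.

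**Figure D4:**
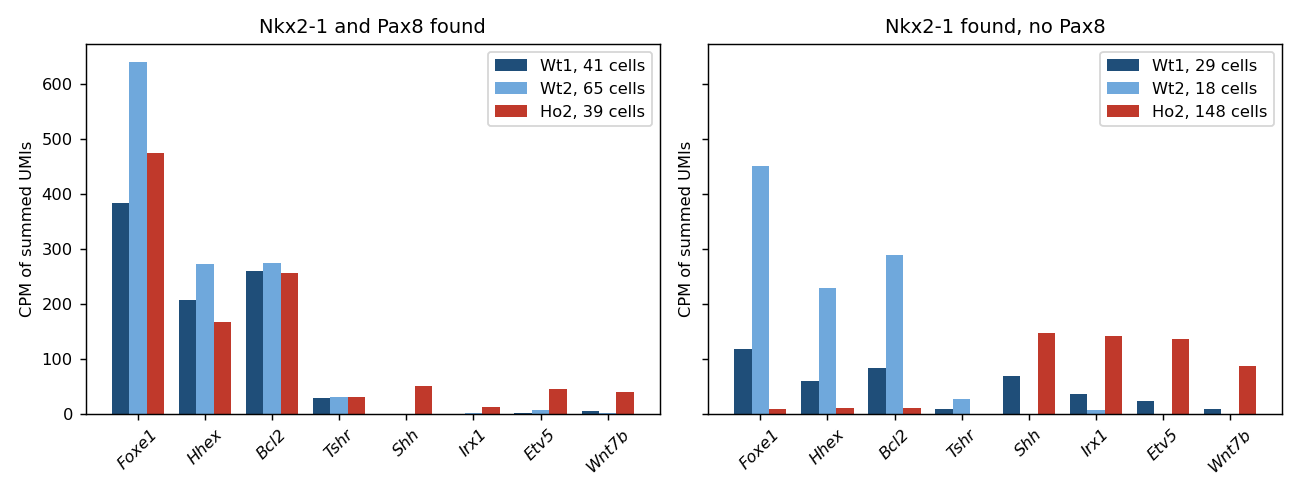
CPM of 8 genes summed over Epcam cells with UMIs of Nkx2-1 and Pax8 (left) and of Nkx2-1 without Pax8 (right), not thinned, as bars for Wt1, Wt2 and Ho2 with the number of cells in the legend. On the left the values of Bcl2 and Tshr lie close together in the 3 libraries, with no intervals drawn. On the right Ho2 has Shh, Irx1, Etv5 and Wnt7b where Wt2 has Foxe1, Hhex and Bcl2.

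Other genes of the same tissues were counted in lists. Of 12 genes of thyroid function, 7 could be tested and 3 were higher in Epcam cells than in other cells, where 11.7% of all genes tested were higher and 14.0% lower: Bcl2, Tshr and Duoxa2, a maturation factor of the oxidase that makes peroxide for hormone synthesis. Thyroglobulin (Tg) stood at 1.20 CPM in Wt1, 2.99 in Wt2 and 2.56 in Ho2 in Epcam cells, not called against other cells (log2 fold change -0.03, edgeR adjusted p = 0.966). The iodide transporters Slc5a5 and Slc26a4 stood at 0.639 CPM at most.

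Of 17 pharyngeal endoderm genes, 15 could be tested, 9 were higher in Epcam cells and 1, Nkx2-5, was lower. Isl1, a LIM factor that also marks heart progenitors, stood at 224 CPM in Wt1, 346 in Wt2 and 146 in Ho2. Ripply3, a partner of Tbx1 in the pouches, stood at 74.2, 26.02 and 34.3 CPM. Fgf8, a pouch ligand, was at 102 CPM in Wt1 and at 1.71 and 0.213 in Wt2 and Ho2, which is the order of Pax1 and Pax9. Of 14 foregut and lung genes 12 could be tested, with 4 higher and 2 lower, and of 12 general endoderm genes 9 were higher and 3 lower. Of the remaining lists, surface ectoderm had 3 of 7 higher and 1 lower, neural genes 1 of 6 higher and 1 lower, otic or renal epithelium 2 of 4 higher, and liver or gut 1 of 2 higher. Against the 11.7% higher and 14.0% lower of all genes tested, counts of 1 gene are near the background and say little about these lists.

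Between genotypes, the Epcam cells of Ho2 were compared with those of Wt1 and Wt2, the single Ho library being assumed to vary like the Wt libraries. Foxa2 was higher in Ho2 and was the only factor called (log2 fold change 2.28, SE 0.32, edgeR adjusted p = 0.0304, 1 of 9 factors, where 0.385% of the 12711 genes tested were called higher and 0.0157% lower). Its levels were 6.62 and 10.7 CPM in Wt and 36.9 CPM in Ho2. In such sums more cells with the transcript and more of it in each cell cannot be told apart, and the thinned shares of 2.94% in Wt1, 5.26% in Wt2 and 12.4% in Ho2 (8.80 to 16.8%) had intervals that overlapped narrowly between Wt2 and Ho2. The call was lost with thresholds of 1 (adjusted p = 0.104) or 3 Epcam UMIs (0.0524), with DESeq2 (0.166), with at least 10 UMIs in every sum (0.0515) and with all 4 libraries and a replicate block (1.00), a fit that takes in the 3 Epcam cells of Ho1, with log2 fold changes of 1.50 to 2.30 over the alternatives that were tested.

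The 8 other factors were not called, which does not show that their levels were alike. Library totals called Nkx2-1 higher and Pax1 and Pax9 lower. The fit with no filter on low counts called more of the factors lower than higher in Ho2. Over all genes tested, both of these fits called a larger share than the main fit. The fit of all 4 libraries, which takes in the 3 Epcam cells of Ho1, called Pax9 lower. Nkx2-1 had a log2 fold change of 1.55 (SE 0.53, edgeR adjusted p = 0.604) and Foxa1 of 1.04 (SE 0.45, adjusted p = 0.788), both with Ho2 above the 2 Wt libraries, for Foxa1 with an interval that overlapped that of Wt2. Foxe1, Pax8 and Hhex had log2 fold changes of -1.15, -1.29 and -1.12, with edgeR adjusted p-values of 0.928, 0.881 and 0.921, and in all 3 the level of Ho2 lay within the range of Wt1 and Wt2. Taking Wt1 alone as the comparison turned these 3 differences to 0.30, 0.036 and 0.13 with no test possible. Sox2 had -0.33 (SE 0.26) and Pax9 -3.60 (SE 1.17). Pax1 had 142 UMIs in Wt1 and 1 each in Wt2 and Ho2. It came into the test through Wt1, so neither a fold nor a p-value is given for it.

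Genes called higher in Ho2 Epcam cells beside Foxa2, where 0.385% of all genes tested were, included 2 of 11 foregut and lung genes (Etv5, with a log2 fold change of 3.12 and an edgeR adjusted p of 0.0376, and Wnt7b), 1 of 14 pharyngeal endoderm genes, Shh (2.13, edgeR adjusted p = 0.0118), and 1 of 11 general endoderm genes, the membrane protease gene Tmprss2, which was named after its values were seen. Shh went against the median of its list. The 14 pharyngeal endoderm genes tested had a median log2 fold change of -1.47, where that of all genes tested was -0.02. The median was 1.13 for the foregut and lung list and 0.02 for the general endoderm list. Wnt7b had 17 UMIs in Wt1, 1 in Wt2 and 286 in Ho2, and Tmprss2 had 16, 3 and 92. Both had under 10 UMIs in Wt2, so their values are given without a p-value. Markers of another endoderm moved with them: of the liver or gut genes, Afp had 0 UMIs in Wt1, 0 in Wt2 and 154 in Ho2, and Ttr had 4, 6 and 128, so that both came into the test through Ho2. The 6 genes of that list summed to 78.8 CPM in Ho2 against 3.16 in Wt1 and 3.41 in Wt2, where Afp, Alb, Hnf4a and Cdx2 were at 0 in both. When the 11 Ho2 Epcam cells with at least 2 UMIs of Afp, Ttr or Apoa1 were left out, an alternative chosen after the data were seen, the log2 fold change of Foxa2 was 2.30 (edgeR adjusted p = 0.0220).

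Outside Epcam cells, Hhex was the factor with the highest share of cells, and among gates of at least 50 cells it was highest in the endothelial one. In cells with at least 2 UMIs of the endothelial cadherin gene Cdh5 and under 2 of Epcam and of the other gate genes, it stood at 24.7 and 28.4 CPM in the Wt libraries and at 24.0 and 30.3 CPM in Ho1 and Ho2. These 4 levels lay close together and near the 25.3 and 27.1 CPM of Epcam cells in Wt1 and Ho2. Cells of the macrophage gate C1qb had 6.16 to 50.4 CPM from 2 to 18 cells a library, those of the mesenchymal gate Pdgfra 2.67 to 5.96 CPM, of the epicardial gate Upk3b 0.417 to 2.75 CPM and of the cardiomyocyte gate Actn2 0.301 to 1.02 CPM. Cells in no gate had 4.14 to 10.99 CPM. In the Epcam cells where Hhex was found, Cdh5 itself stood at 43.0 CPM in Wt1, 23.0 in Wt2 and 25.4 in Ho2, against 282 to 314 CPM in cells of the Cdh5 gate.

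Sox2 was found at a low level in the mesenchymal gate, with 1.44 and 3.45 CPM in Wt1 and Wt2 and 2.53 and 1.97 CPM in Ho1 and Ho2, and in cells of no gate with 0.809 to 2.05 CPM. Pax9 reached 1.10 CPM in cells of no gate in Wt1. The other 6 factors stayed at or below 0.694 CPM in every gate with at least 50 cells. Just below the Epcam threshold, the 332 cells of Wt1 with exactly 1 Epcam UMI held Foxe1 at 4.27 CPM (17 UMIs), and the 73 cells with exactly 2, just above it, at 46.1 CPM. With exactly 1 Epcam UMI Foxe1 had 12 UMIs in Wt2 (6.04 CPM), 2 in Ho2 (0.705 CPM) and 0 in Ho1. Hhex was lower in such cells than in those with no Epcam UMI in Wt1 (4.02 against 7.02 CPM) and Wt2 (5.03 against 10.7 CPM). In Ho1 it was higher (12.1 against 9.42 CPM), and in Ho2 the levels were close (7.75 against 8.31 CPM).

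**Figure D5:**
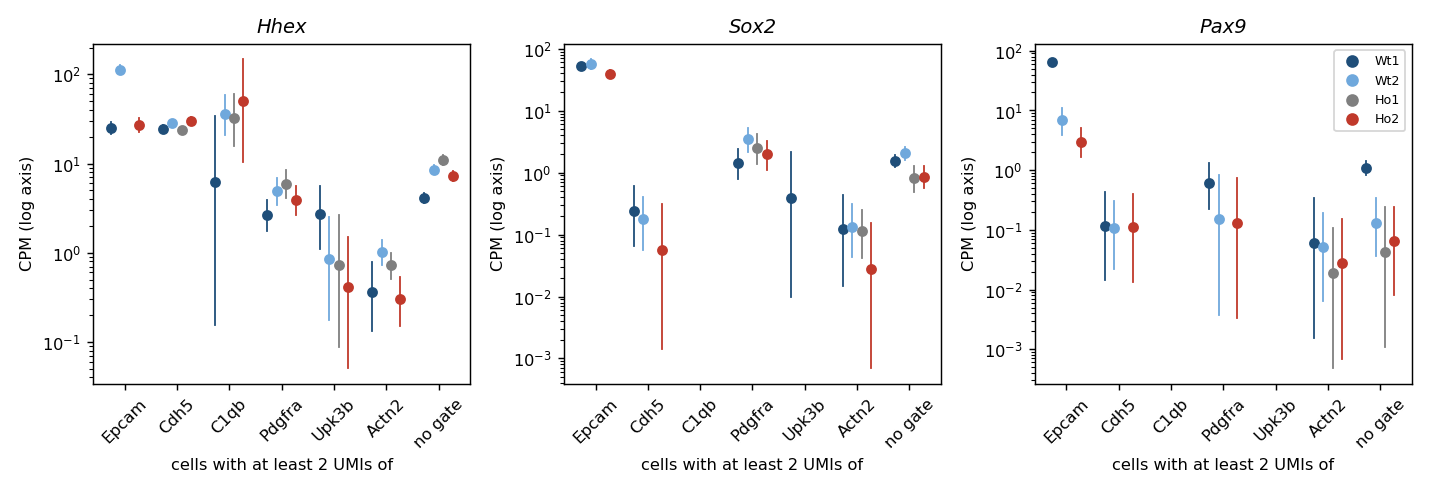
CPM of Hhex, Sox2 and Pax9 (log axis) with exact Poisson 95% intervals in cells gated by at least 2 UMIs of 1 marker gene and in cells of no gate; groups with 0 UMIs and, except for Hhex in the C1qb gate, groups under 50 cells are not drawn. Hhex in Cdh5 cells lies between 24.0 and 30.3 CPM in the 4 libraries, as high as in the Epcam cells of Wt1 and Ho2.

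Between genotypes, no factor was called in the other cells, where all 4 libraries could be used. Of the 9 factors 6 had enough counts to be tested, and 0 were called, as were 0% of the 16961 genes tested with edgeR; 895 of these genes had an unadjusted p under 0.05 and DESeq2 called 26. Hhex stood at 6.90 and 10.6 CPM in Wt1 and Wt2 and at 9.46 and 8.30 CPM in Ho1 and Ho2, with overlapping groups and a log2 fold change of 0.07 (SE 0.23, edgeR adjusted p = 0.950). Sox2 stood at 1.00 and 0.864 CPM in Wt and 0.311 and 0.426 in Ho. For Sox2 both Ho libraries were below both Wt libraries, with a log2 fold change of -1.31 (SE 0.29, edgeR adjusted p = 0.744, unadjusted p = 0.00563). Foxe1 had 42 and 34 UMIs in Wt and 1 and 10 in Ho. It came into the test through the Wt sums in which it was high. Its fitted log2 fold change of -2.77 (SE 0.82) is therefore given without a p-value. DESeq2 called neither Sox2 nor Foxe1. Ho1, with the lowest Foxe1 and Sox2 levels, also had the lowest share of Epcam cells, and the part of that share in these levels was not tested.

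The genes most like each factor across Epcam cells were ranked by the mean within-library correlation of log counts over Wt1, Wt2 and Ho2, among 12459 genes; cells of a library share its depth, and the values are a description. For Pax8 they were Bcl2 (mean r 0.67), the prolactin receptor gene Prlr (0.66) and Socs2, a damper of cytokine signals (0.64). The nuclear RNA Malat1, named after its values were seen, was among the 10 genes most like Pax8 (0.56) and Foxe1 (0.52), and its part in these likenesses was not tested. For Hhex they were Pax8 (0.59), Bcl2 (0.59) and Prlr (0.56), and for Foxe1 Gm12446 (0.65), which overlaps it, Pax8 (0.61) and Bcl2 (0.55). For Nkx2-1 they were Mbip (0.51), Hhex (0.51) and the long RNA Meg3 (0.50). Mbip, the nearest of these in the genome, lies 186064 bases from Nkx2-1 on the same strand.

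The foregut factors had weaker likenesses. Foxa2 was most like Shh (mean r 0.38), Igfbp2 (0.28) and the keratin gene Krt7 (0.27), Sox2 like Emb (0.46), the integrin partner Fermt1 (0.43) and Siva1 (0.40), and Foxa1 like Fam210b (0.27), Igfbp2 (0.26) and Siva1 (0.25). Pax9 was most like Aldh1a7 (0.25) and Uchl1 (0.20). Some of these means were not carried by every library: Fam210b had r = 0.19, 0.54 and 0.07 with Foxa1 in Wt1, Wt2 and Ho2, and Aldh1a7 0.34, 0.42 and -0.02 with Pax9, which was found in 12 cells each of Wt2 and Ho2. For Pax1 the mean rested on 1 cell each in Wt2 and Ho2, so no gene is named from it. Within Wt1 alone, looked at after the values were seen, Pax1 was most like AI646519 (r = 0.49 over 536 cells), which overlaps it, and Pax9 like Aldh1a1, which makes retinoic acid (0.43).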

How the data were processed

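Per the labels, single-cell 3′ libraries (10x Genomics v3.1) of E10.5 hearts were counted with Cell Ranger 6.1.1 on mm10 and analysed with Seurat 4.1.0; the authors deposited raw UMI counts per gene and cell, with no normalization, and these were used here. The members and gene lists were chosen with earlier results of these data known. Genotype and replicate came from the labels. Cells with 500 to 6000 genes were kept, and no doublet was removed in the main analysis. Scrublet in scanpy 1.11.5 called 287 (Wt1), 205 (Wt2), 374 (Ho1) and 116 (Ho2) doublets, left out in an alternative. Counts were summed per library over Epcam and other cells and tested with edgeR 4.0.16 in R 4.3.3 (quasi-likelihood test, TMM, filterByExpr, Benjamini-Hochberg adjustment over all genes tested, 0.05), with DESeq2 1.42.0 as an alternative. Levels are CPM relative to the full UMI sum of a cell set, and fold changes come from the fit. Other alternatives were Epcam thresholds of 1 and 3 UMIs, at most 20% mitochondrial counts with 500 to 50000 UMIs, mixed Epcam cells left out, RLE or library totals, 2 other filters on low counts, other blocks and libraries, and leaving out each library.

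The 9 factors were always named. Of each list all genes were counted and the 4 with the highest CPM in Epcam cells could be named, with the genes most like a factor (the 3 highest, mean r at least 0.2, found in at least 20 Epcam cells); other genes were named after their values were seen. Intervals are exact 95% ones and, like the limit of 3 counts for a count of 0, cover counting error only. Each edgeR fit was tested on simulated data. Per the methods, Cell Ranger ran at its defaults. The authors' clusters were not used.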

Additional observations from a re-analysis of the deposited data

Results flagged for a closer look

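The 3 Epcam cells of Ho1, which entered no comparison of levels except the alternatives with all 4 libraries, held genes of liver or gut (Afp, Apoa1, Ttr and Hnf4a, with no UMIs of Alb and Cdx2) at a sum of 2772 CPM, of which Afp, the fetal serum protein of liver and yolk sac, gave 2316 CPM. The same sum was 3.16 CPM in the Epcam cells of Wt1 and 3.41 CPM in those of Wt2. Only 1 of the 3 cells had at least 2 UMIs of Afp, Ttr or Apoa1, so this level comes from very few cells. It was singled out because these cells lie outside the comparisons and stand above the Wt libraries.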

How the results depend on the processing

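The 9 calls of Epcam against other cells kept direction and significance in each of the 129 alternative values that could be computed, although with at least 10 UMIs in every sum only 4 factors could be tested, of which 4 were called. Over all genes, that comparison called 4257, between 2575 (without Wt2) and 3569 with a library left out; scaling by library totals called 2533 higher and 1648 lower, against 1944 and 2313, and moved the median of all genes from -0.03 to 0.13. The genotype comparison in Epcam cells called 51 genes (49 higher, 2 lower). It called 12 and 28 with 1 and 3 Epcam UMIs, 129 without mixed Epcam cells (99 higher, 30 lower), 26 with DESeq2, 199 with library totals (112 and 87), 323 with no filter on low counts (178 and 145) and 6 with at least 10 UMIs in every sum. Against 1 factor called, these were 0 with 1 or 3 Epcam UMIs, 0 with DESeq2, 0 with at least 10 UMIs in every sum, 4 with library totals (Foxa2 and Nkx2-1 higher, Pax1 and Pax9 lower, with the median of all genes at -0.15 against -0.02), 7 with no filter and 2 with all 4 libraries; the cause was not tested. Without Wt1 or Wt2 no test was possible, and with either left out the differences ranged from -2.01 to 0.036 (Pax8), -1.87 to 0.30 (Foxe1) and -1.83 to 0.13 (Hhex), positive without Wt2. In other cells edgeR called 0 genes, DESeq2 26, and leaving out a library gave 0 to 6 (6 without Ho2, 2 higher and 4 lower). Differences there that changed sign were Pax8 with 1 Epcam UMI (0.051) and, with a library left out, Foxa2 (-0.23 to 0.79, negative without Ho2), Nkx2-1 (-6.40 to 0.33, positive without Ho1, which had 0 UMIs) and Hhex (-0.21 to 0.39, negative without Wt1 and, at -0.08, without Ho1). The difference in Epcam cell share between Ho and Wt was -1.91 points, between -4.13 and 0.32 with a library left out, and reversed without Ho1.

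The replicate numbers name no shared litter or day. The replicate 1 minus 2 differences of Wt and Ho correlated at -0.44 over 16961 genes. With a replicate block, the other cells gave 0 called genes (448 at an unadjusted p under 0.05), and the Epcam cells of all 4 libraries gave 41, with Foxa2 not called; that fit takes in the 3 Epcam cells of Ho1, with 0 UMIs of Foxe1, and nothing is read from its call of Foxe1 as lower (-2.15); over Wt1, Wt2 and Ho2 no such block could be fitted. The crossed pairing, added after the data were seen, gave 0 called genes and 2503 at an unadjusted p under 0.05. Of 96 shares of Epcam cells, 73 moved beyond their interval with thinning to 2000 UMIs or none.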

Other observations

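Over all genes tested, the Epcam cells of Ho2 differed from those of Wt1 and Wt2 in 51, of which 49 were higher, the list genes and Foxa2 included. This balance depended on the settings, with 112 higher and 87 lower by library totals, 178 and 145 with no filter on low counts, and 99 and 30 without mixed Epcam cells. The genes named here were chosen after their values were seen. Several were near 0 in both Wt libraries or in Wt2 and came into the test through Ho2, so they are given as values without a p-value: Sftpa1, a surfactant protein gene, which stood at 0.313 and 0 normalized CPM in Wt1 and Wt2 and at 31.2 in Ho2, Sfta2 at 0.313, 0.772 and 21.5, and Cldn18, a claudin of lung and stomach, at 0.469, 0 and 20.4. The gut hormone gene Pyy stood at 2.19, 0.386 and 61.1 normalized CPM, and Rfx6, a factor of endocrine pancreas and gut, at 0.469, 0 and 14.7. The antigen-presentation genes H2-K1 and H2-D1 were higher too, at 41.6 and 48.6 normalized CPM in Ho2 against 11.4 and 13.0 in Wt1 and 8.50 and 7.72 in Wt2 (edgeR adjusted p = 0.0323 and 0.0325). The 2 genes that were lower were Tm4sf1, at 18.6, 18.5 and 2.71 normalized CPM (edgeR adjusted p = 0.0389), and Pcp4, at 12.4, 17.4 and 1.13. All of these values come from 1 Ho library.

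Cyp51 itself, the mutated gene, stood at 71.4 and 59.99 normalized CPM in the other cells of Wt1 and Wt2 and at 55.7 and 65.6 in Ho1 and Ho2 (log2 fold change -0.11, SE 0.14, edgeR adjusted p = 0.847); counts per gene cannot show a point mutation, so they do not check the labels.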
